A study of Mus musculus with 4 samples.

Results

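Normal stages of normal B-cell development were set side by side here: B220+ CD43- cells and B220+ CD43+ cells sorted from the bone marrow of wild-type (WT) mice, with 1 BeadChip array for each. A probe was taken when its detection score, the deposited measure of how far a probe stands above the array's own background, was over 0.99 on at least 1 of these 2 arrays. This kept 11576 of 25697 probes, which stand for 8539 of 17916 genes. Each gene was read from its brightest probe. The study measured 4 samples in all, 1 array each: CD43- and CD43+ cells of WT mice, and CD43- and CD43+ cells of mice that lack both Btg1 and Btg2 (dKO), on the C57BL6/J strain. The submitters equate the CD43- gate with Hardy fractions D to F and the CD43+ gate with Hardy fractions A to C. The labels used here give neither the age of the mice nor how many contributed to a sample, and each gate spans several developmental steps. With 1 array a side no difference between the stages has a replicate check, so no p-value was computed, and every fold change below describes these 2 libraries.

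B lymphocytes form in the marrow in steps. Pro-B cells, which carry CD43 (a sialomucin), assemble the immunoglobulin heavy chain with the RAG recombinase and with terminal transferase, which adds bases at the joints. A heavy chain that pairs with the surrogate light chain forms the pre-B-cell receptor, after which the cells divide, lose CD43 and assemble a light chain. Immature and mature B cells then carry a complete receptor and gain coreceptors, chemokine receptors and survival receptors that serve them outside the marrow.

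The 2 WT arrays were alike in brightness and precision. Mean signal (bead intensity before normalization) was 555 on the CD43- array and 551 on the CD43+ array, and 10318 and 11008 of their probes were detected (40.2% and 42.8%). The dimmest detected probes read 168 on the CD43- array and 165 on the CD43+ array. The median bead standard error was 4.02% of the signal on the CD43- array and 4.00% on the CD43+ array. This bead error covers the chip measurement alone, not the spread between mice or sorts, and it is the ± given below. Values were background-corrected, quantile normalized and put on the log2 scale, and each difference is CD43- minus CD43+. Where a probe was detected on 1 of the arrays only, the fold is a bound taken at the detection limit and is written "at least". The probes just inside the threshold had a score of 0.99123 and those just outside 0.98997.

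The gates were first checked against their defining genes. Spn, which encodes CD43, gave a signal of 149 in CD43- cells, which was not detected, and 165 in CD43+ cells, which was at the detection limit, so the array gives no fold for the sorting marker itself. Ptprc, whose B220 isoform was the other sorting marker, read 463 in CD43- cells and 391 in CD43+ cells, a log2 difference of 0.37 ± 0.15. Another Ptprc probe, detected on both arrays, gave 0.74, and neither probe separates isoforms by name. The B-lineage gene Cd79b, a signalling chain of the B-cell receptor, was detected in both. It read 28574 in CD43- cells and 8986 in CD43+ cells, 2.90-fold higher in CD43- cells. Btg1 and Btg2, the antiproliferative genes deleted in the other genotype, were read in these WT cells too. Btg1 read 19425 in CD43- cells and 8610 in CD43+ cells, 2.09-fold higher, while Btg2, at 142 and 156, was detected on neither array. Btg1, Tob1 (2.06-fold) and Tob2 (2.22-fold) made up the 3 of 4 measured BTG/TOB genes that were at least 2-fold higher, beside 7.85% of all tested genes. Tob1 read 227 in CD43- cells and 181 in CD43+ cells, and Tob2 read 405 and 263. The Tob1 signals were close to the dimmest detected probes, so the size of its fold depends on the background correction.

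Most genes stayed within 2-fold between the stages. In CD43- cells 670 of the 8539 genes (7.85%) were higher by 2-fold or more, 954 (11.2%) were lower by as much, and 6915 (81.0%) lay between. The larger differences were more often downward: 4-fold was passed by 106 higher genes (1.24%) and 346 lower genes (4.05%), and beyond 16-fold the counts were 7 (0.082%) and 74 (0.867%). Counted over single probes, 918 (7.93%) were 2-fold higher and 1199 (10.4%) were 2-fold lower. When genes seen on 1 array only were held to their bound, 534 higher genes (6.25%) and 730 lower genes (8.55%) passed 2-fold. Without background correction 247 higher and 425 lower genes passed it, since uncorrected values compress the folds of dim probes. The median log2 difference of all tested genes was 0.06, with 4606 genes above 0 and 3923 below. These counts, and the shares of 7.85% higher and 11.2% lower, are the base for the list counts below. The log2 values of the 2 arrays correlated across genes at r = 0.90 (8539 genes read on the same pair of arrays, not independent replicates).

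**Figure D1:**
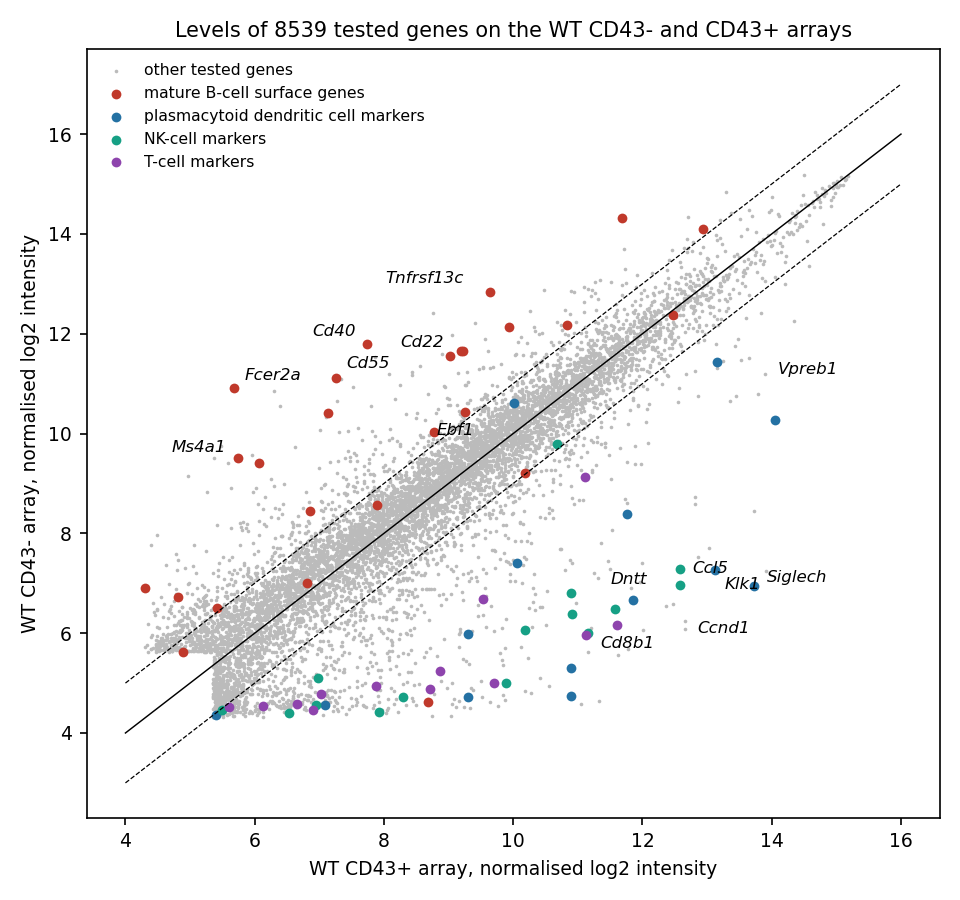
Normalized log2 level of each of the 8539 tested genes in WT CD43- cells (vertical axis) against WT CD43+ cells (horizontal axis), with dashed lines at a 2-fold difference. The points below the lower line (954 genes) reach farther from it than the 670 points above the upper line do.

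The largest normalized differences upward were led by Fcer2a. This gene, which encodes the low-affinity IgE receptor CD23, read 1818 in CD43- cells and 174 in CD43+ cells, 37.7-fold higher (log2 5.23 ± 0.22). Reln, which encodes the secreted glycoprotein reelin, was 23.5-fold higher, Prm1, a sperm protamine, was 19.5-fold higher, and the growth hormone gene Gh was at least 13.9-fold higher. The Kelch-domain gene Klhl14 and the cannabinoid receptor gene Cnr2 were both 17.7-fold higher. The costimulatory receptor Cd40 followed at 16.7-fold, the complement inhibitor Cd55 at 14.4-fold, and Ms4a1, which encodes CD20, at 13.6-fold. Completing the 15 genes with the largest normalized difference were the granule-protein gene Prg3 (14.2-fold), the pseudokinase Trib2 (13.6-fold), the amino-acid oxidase Il4i1 (12.8-fold), the fatty-acid desaturase Scd1 (12.5-fold), the DNA polymerase mu gene Polm (12.2-fold) and Il2ra, the interleukin-2 receptor alpha chain that marks pre-B cells (at least 11.2-fold). Several of these folds rest on CD43+ signals close to the dimmest detected probe of that array, 165. Klhl14 read 165 in CD43+ cells, Prm1 168, Prg3 171 and Ms4a1 176, beside 174 for Fcer2a. The size and rank of such folds depend on the background correction and the offset. Among the 27 genes at least 8-fold higher, 7 belong to the list of mature B-cell surface genes and 14 to none of the 40 gene lists used.

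The genes with the largest differences downward included many that mark other marrow cells. Siglech, a lectin of plasmacytoid dendritic cells, read 228 in CD43- cells and 11233 in CD43+ cells, 110-fold lower (log2 -6.79 ± 0.17). Ccnd1, which encodes cyclin D1, read 183 in CD43- cells and 5750 in CD43+ cells, 94.9-fold lower. P2ry14, a receptor for UDP-sugars, was 85.2-fold lower, and the lectin-like receptor gene Klra17 was 67.8-fold lower. The tissue kallikreins Klk1 (57.5-fold), Klk1b27 (61.1-fold), Klk1b4 (58.7-fold) and Klk1b5 (56.5-fold) were all lower. These are close paralogs whose probes may read each other's transcripts. The authors' deposited table gave log2 differences of -3.31 for Klk1b4 and -3.69 for Klk1b5, against -5.87 and -5.82 here. It gave -5.98 for Klk1 and -6.97 for Klk1b27, against -5.84 and -5.93 here. Klk1b4 and Klk1b5 each had another probe that was detected on neither array. Another 5 of the 15 genes with the largest normalized difference reached a bound only, since CD43- cells were below detection. In the order of their bounds they were Atp2a1, a calcium pump (at least 64.7-fold), the adapter Fyb (at least 52.6-fold), MGL1 (at least 43.4-fold), the inhibitory receptor Lag3 (at least 39.0-fold) and the lectin Cd209d (at least 38.7-fold). Klrd1, an NK-cell receptor chain (48.6-fold), and Mycl, a MYC relative (at least 30.6-fold), complete the 15 genes ranked by normalized difference. That ranking takes values below detection as they stand. By bounds, for example, Ccl4 (46.3-fold), Cd8b1 (43.5-fold) and Fcer1g (40.1-fold) come before Lag3, Cd209d and Mycl. In CD43- cells Klra17 read 170 and Ccl4 168, close to the dimmest detected probe of that array, 168. The size of these folds therefore depends on the background correction and the offset.

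Marker lists of other marrow cells were read whole, because B220 and CD43 are also carried by cells outside the B lineage. Of 14 plasmacytoid dendritic cell markers, 13 were at least 2-fold lower in CD43- cells, with a median log2 difference of -3.57. Their summed signal was 7540 in CD43- cells and 56800 in CD43+ cells, and 5 of them, Lag3, Cd209d, Pltp, Cd4 and Runx2, were detected in CD43+ cells only. The exception was Zeb2, at 0.61. Of 15 NK-cell markers, 14 were at least 2-fold lower (median -4.09), with a summed signal of 3362 in CD43- cells and 24548 in CD43+ cells. The NK members Klrb1c, Klrk1, Ncr1, Tbx21, Eomes, Il2rb and Xcl1 were below detection in CD43- cells. All 13 T-cell markers were at least 2-fold lower (median -2.85, or -2.26 by bounds). By bounds alone, 12 plasmacytoid, 12 NK-cell and 11 T-cell markers still passed 2-fold. Cd3d, Cd3e and Cd3g, chains of the T-cell receptor complex, were not detected in CD43- cells, against 830, 334 and 531 in CD43+ cells. The summed T-cell signal was 2499 in CD43- cells and 10878 in CD43+ cells. All summed signals, here and below, include the background of each probe. The median probe of the CD43- array read 153, and 9 of the 13 T-cell markers were detected in CD43+ cells only. Much of the low CD43- sums is therefore background.

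Single markers show how wide these gaps were. Ccl5, a chemokine of NK and T cells, read 258 in CD43- cells and 5506 in CD43+ cells, 39.1-fold lower. Nkg7, a cytotoxic granule gene, was 33.9-fold lower and the protease gene Ctsw 35.7-fold lower. Thy1, the Thy-1 antigen, was 35.7-fold lower, and Cd8b1, the CD8 beta chain, was 43.5-fold lower on its brightest probe. Each of these 5 genes was still detected in CD43- cells. Lower levels of such markers can come from fewer cells of a type or from less RNA per cell, which cannot be told apart in bulk RNA. Of the 74 genes at least 16-fold lower, 8 are on the NK-cell list, 6 on the plasmacytoid list and 3 on the T-cell list, while 47 are on no list. The part of these markers in the differences of other genes was not tested.

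Myeloid and erythroid markers were less uniform. Of 15 neutrophil and granulocyte progenitor markers, 11 were at least 2-fold lower in CD43- cells, or 8 by bounds (median -1.35, or -1.07 by bounds). Their summed signal was 11760 in CD43- cells and 32134 in CD43+ cells. Among them the granule genes Chil3 (4.84-fold), Ltf (4.37-fold), Ngp (4.24-fold) and Lcn2 (4.03-fold) were farthest apart, and the myeloperoxidase gene Mpo, at -0.49, was within 2-fold. Of 11 monocyte and macrophage markers, 5 were lower (4 by bounds), led by Cd68, a lysosomal glycoprotein (34.1-fold), and the lysozymes Lyz2 (8.90-fold) and Lyz1 (7.93-fold), which are paralogs. Another 4 were higher and detected in CD43- cells only: the complement genes C1qb (at least 3.87-fold) and C1qc (at least 2.28-fold), the adhesion molecule Vcam1 (at least 4.00-fold) and the transcription factor Spic (at least 2.18-fold). The summed macrophage signal was 3917 in CD43- cells and 18915 in CD43+ cells. Of 8 erythroid markers 5 were higher and none lower by 2-fold (median 1.05), with summed signals of 29471 in CD43- cells and 15566 in CD43+ cells. The haem enzyme Alas2 was 3.11-fold higher, the haemoglobin genes Hbb-b1 and Hba-a1 were 2.68-fold and 2.06-fold higher, and the band 3 gene Slc4a1 was 2.46-fold higher. Of 5 measured basophil, mast and eosinophil markers, 3 were higher (2 by bounds) and 1, Prg2 (2.18-fold), was lower. Of the megakaryocyte markers Pf4 alone was measured, at the detection limit.

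**Figure D2:**
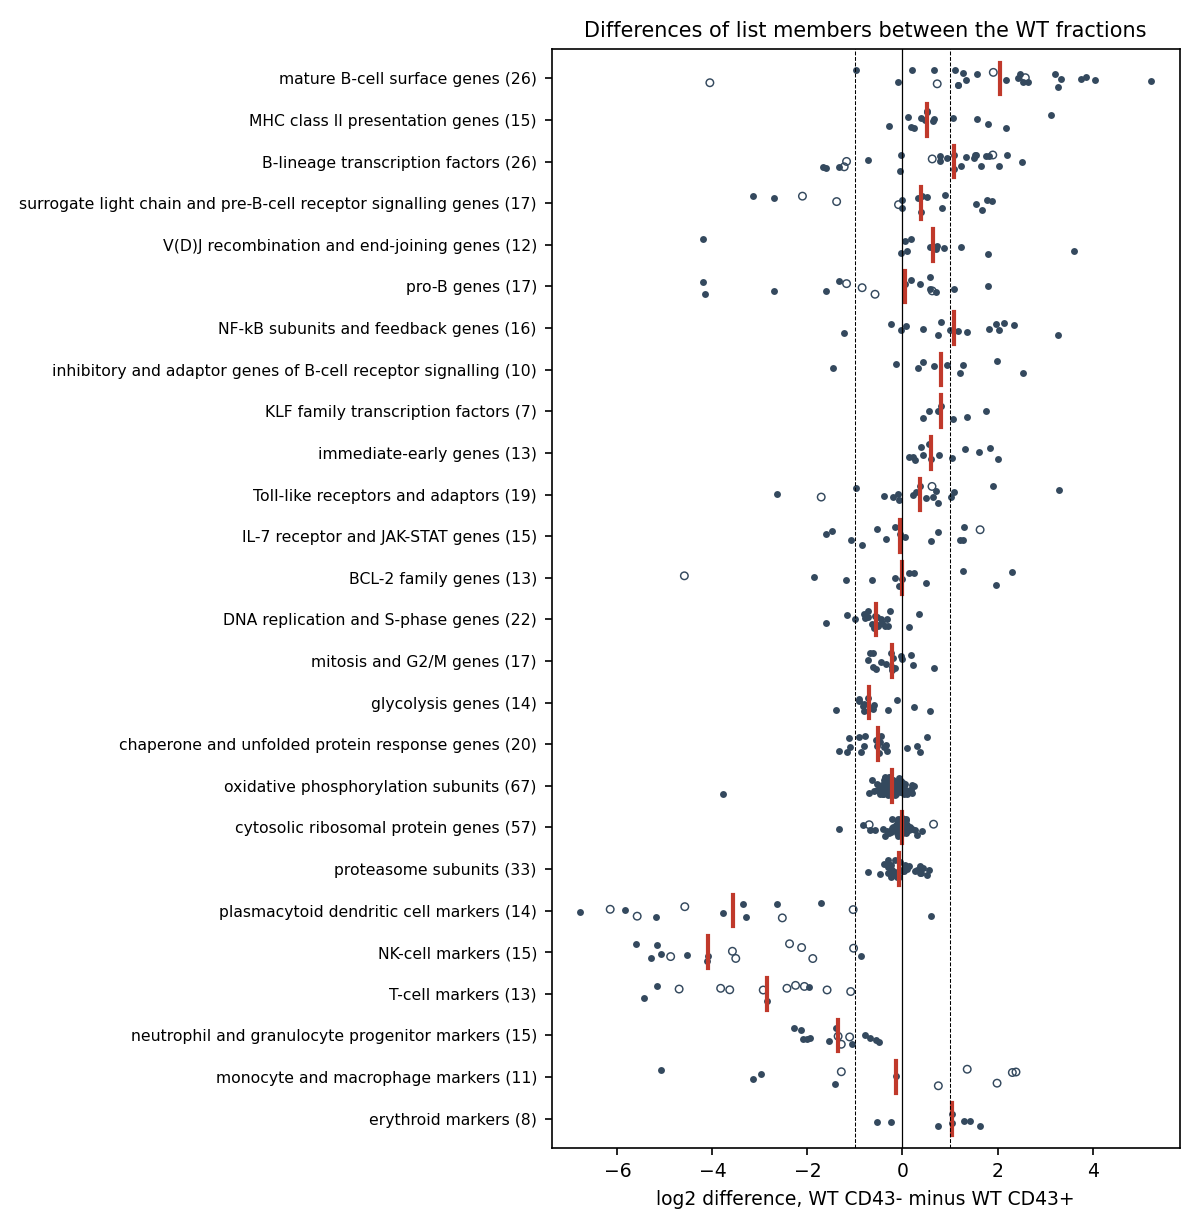
Log2 difference, WT CD43- minus WT CD43+, for the tested members of the gene lists, 1 row a list, with open circles for genes detected on 1 array and a red bar at each list's median. The NK, plasmacytoid and T-cell rows lie almost wholly below 0 (medians -4.09, -3.57 and -2.85) and the mature B-cell surface row mainly above it (median 2.05).

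Mature B-cell surface genes were the list with the highest median. Of 26 measured, 20 were at least 2-fold higher in CD43- cells and 1 was lower, with a median log2 difference of 2.05 (1.56 by bounds), against 0.06 for all tested genes. Cd40 read 3235 in CD43- cells and 316 in CD43+ cells. Tnfrsf13c, the receptor for the survival factor BAFF, read 6591 in CD43- cells and 797 in CD43+ cells, 9.23-fold higher (log2 3.21 ± 0.10). Cd22, an inhibitory lectin of the B-cell receptor, read 2763 in CD43- cells and 577 in CD43+ cells, 5.79-fold higher. These 3 receptors were detected on both arrays, so their folds need no bound. Fcmr, the receptor for IgM, was 6.21-fold higher, Ltb, which encodes lymphotoxin beta, 5.55-fold, and the inhibitory receptor Btla 5.41-fold. The complement receptor Cr2 and the ectoenzyme Cd38 were detected in CD43- cells only, at least 2.91-fold and 2.59-fold higher. The single lower member was Lair1, an inhibitory collagen receptor also carried by many other leukocytes, at least 8.37-fold lower. Cd180, a Toll-like receptor relative, was 1.97-fold lower, and Tnfrsf13b, the TACI receptor, was 1.59-fold higher.

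Fc receptors were split by member. Of 11 measured, 6 were at least 2-fold higher, or 5 by bounds, and 3 lower. Among the higher members were Fcer2a, Fcrl1 (10.1-fold) and the inhibitory receptor Fcgr2b (2.40-fold). Fcer1a, the IgE receptor chain of mast cells and basophils, was detected in CD43- cells only, at least 1.62-fold higher. Fcer1g, the shared signalling chain of the activating Fc receptors of myeloid and NK cells, read 302 in CD43- cells and 7546 in CD43+ cells, 40.1-fold lower. Fcgr4, an activating IgG receptor of myeloid cells, was at least 5.65-fold lower. NK-cell and neutrophil markers were lower in the same cells, and their part was not tested.

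Genes for MHC class II presentation were mostly higher by modest amounts. Of 15 measured, 14 were above 0, 5 were at least 2-fold higher and none was 2-fold lower (median 0.52). H2-Aa and H2-Ab1, the chains of the I-A molecule, were 1.43-fold and 1.40-fold higher, and Cd74, the invariant chain, was 1.59-fold higher. H2-Eb1, a chain of the I-E molecule, was 2.08-fold higher. The chains of the peptide exchanger H2-M differed among themselves. H2-DMb2 read 2214 in CD43- cells and 364 in CD43+ cells, 8.70-fold higher, whereas H2-DMb1 was 1.31-fold and H2-DMa 1.13-fold higher. H2-Ob, a chain of the H2-M inhibitor H2-O, was 4.55-fold higher, while the partner chain gene H2-Oa was 1.43-fold higher. Ciita, the class II transactivator, was 3.47-fold higher, and the thiol reductase Ifi30 was 2.97-fold higher.

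Homing receptors went both ways, with 6 of 16 at least 2-fold higher and 6 lower (5 by bounds). The follicle-homing receptor Cxcr5 read 2280 in CD43- cells and 429 in CD43+ cells, 6.98-fold higher. Ccr7, which guides cells to T-cell zones, read 589 in CD43- cells and 197 in CD43+ cells, 7.13-fold higher. Ccr6, a receptor of mature B cells, was 8.36-fold higher. All 3 receptors serve lymphocytes in lymphoid organs, and Gpr183, a follicle-positioning receptor for oxysterols, was also higher, by 3.15-fold. Cxcr4, which holds precursors in the marrow, was 2.23-fold higher. On the lower side stood Cxcr3 (at least 25.3-fold), a chemokine receptor of NK and T cells, and the integrin chain Itgb7 (3.07-fold). The NK, T and plasmacytoid markers were lower in the same cells, and their part in these differences was not tested.

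Transcription factors of the B lineage were mainly higher. Of 26 measured, 14 were at least 2-fold higher and 5 lower, or 3 lower by bounds (median 1.08). Pou2f2, the octamer-binding factor OCT2, read 1096 in CD43- cells and 301 in CD43+ cells, 5.75-fold higher. Bach2, a repressor of plasma-cell genes, read 5023 in CD43- cells and 1178 in CD43+ cells, 4.60-fold higher. Pax5, the B-lineage commitment factor, read 210 in CD43- cells and 147, below detection, in CD43+ cells, at least 2.45-fold higher. Ebf1, which acts with it, was 2.12-fold higher, at 884 in CD43- cells and 481 in CD43+ cells. The octamer coactivator Pou2af1 (2.86-fold), the ETS factors Spib (2.92-fold) and Spi1 (2.86-fold), Foxo1, which drives Rag transcription (2.51-fold), and Bcl6 (3.13-fold) were likewise higher. Ikzf1, which encodes Ikaros, differed between its probes, with log2 differences of 0.93 and -0.13.

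The lower factors were Irf8, Id2, Lef1, Tcf3 and Erg. Irf8, which acts in dendritic cells as well as in B cells, read 3148 in CD43- cells and 9486 in CD43+ cells, 3.21-fold lower. Id2, an inhibitor of E proteins, was 3.04-fold lower, and Lef1, a factor of pro-B cells, was 2.52-fold lower. Tcf3, the gene of the E protein E2A, was below detection in CD43- cells, at least 1.38-fold lower, so its difference is not shown to reach 2-fold, and the same holds for Erg at 1.03-fold. Across the 5 measured E proteins and Id inhibitors, 3 were lower (2 by bounds) and 1 higher: Tcf4, the E protein E2-2 of plasmacytoid dendritic cells, was 3.30-fold lower, and Tcf12, the E protein HEB, was 2.35-fold higher. Id3 was 1.73-fold higher. Tcf4 is itself on the plasmacytoid list. Plasmacytoid and NK-cell markers were lower in the same cells as Irf8, Tcf4 and Id2, and their part was not tested.

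Promoters were read for short sequence motifs of factors whose genes are on these lists. RefSeq windows on GRCm38.p6, from 250 bases before to 50 after the annotated start, were searched on both strands for a kappa-B motif (GGGA, any base, then TTTCC), an EBF motif (TCCC, any pair of bases, then GGGA) and the octamer (ATTTGCAT). None of these motifs contains another. The 4 windows below were chosen to show 1 or more matches of each motif in a gene described here, with the match in capitals. They lie at chr12:55492598-55492897 on the minus strand (Nfkbia, where the match is on the opposite strand, from 29 to 20 bases before the start), chr17:35194257-35194556 on the plus strand (Ltb, opposite strand, 87 to 78 bases before), chr7:30878979-30879278 on the minus strand (Cd22, 49 to 40 bases before) and chr10:75948050-75948349 on the plus strand (Vpreb3, 45 to 38 bases before).
Nfkbia kappa-B: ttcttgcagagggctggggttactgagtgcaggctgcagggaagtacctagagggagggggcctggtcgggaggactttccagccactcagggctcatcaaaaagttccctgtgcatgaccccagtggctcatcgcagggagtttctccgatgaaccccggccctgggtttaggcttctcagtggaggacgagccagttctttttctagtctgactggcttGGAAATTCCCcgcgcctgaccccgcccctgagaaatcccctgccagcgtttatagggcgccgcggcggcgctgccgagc
Ltb kappa-B: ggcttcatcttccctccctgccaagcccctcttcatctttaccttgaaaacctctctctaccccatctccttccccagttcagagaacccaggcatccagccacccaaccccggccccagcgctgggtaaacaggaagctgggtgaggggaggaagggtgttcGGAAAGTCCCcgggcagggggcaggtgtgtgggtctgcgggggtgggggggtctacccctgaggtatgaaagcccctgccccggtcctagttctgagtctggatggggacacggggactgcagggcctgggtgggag
Cd22 EBF: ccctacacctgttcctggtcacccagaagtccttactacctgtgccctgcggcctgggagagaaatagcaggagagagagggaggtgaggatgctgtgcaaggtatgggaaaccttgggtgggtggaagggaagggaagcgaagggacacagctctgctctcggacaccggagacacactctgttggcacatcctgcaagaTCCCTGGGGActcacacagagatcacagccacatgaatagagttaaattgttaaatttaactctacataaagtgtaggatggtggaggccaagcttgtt
Vpreb3 octamer: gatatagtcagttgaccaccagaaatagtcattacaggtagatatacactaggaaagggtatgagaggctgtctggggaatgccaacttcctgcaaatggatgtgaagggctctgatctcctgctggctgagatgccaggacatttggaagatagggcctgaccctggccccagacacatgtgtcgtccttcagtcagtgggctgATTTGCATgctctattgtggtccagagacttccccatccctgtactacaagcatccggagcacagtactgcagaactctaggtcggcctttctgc

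The motifs were rare in every group of promoters. The kappa-B motif was in 0.385% of all 27025 promoters and 0.346% of the 6643 of tested genes, in 4 of 503 (0.795%) of genes at least 2-fold higher in CD43- cells and in 1 of 723 (0.138%) of genes at least 2-fold lower. The EBF motif was in 0.914% of all promoters and 0.963% of those of tested genes, in 12 (2.39%) of the higher genes and in 7 (0.968%) of the lower genes. The octamer was in 1.75% of all promoters and 1.49% of those of tested genes, in 13 (2.58%) of the higher genes and in 9 (1.24%) of the lower genes. Among the lists, the kappa-B motif was in 1 of 12 promoters of NF-kB genes (Nfkbia), the octamer in 3 of 14 of pre-B-cell receptor genes (Vpreb3, Blnk and Prkcb) and the EBF motif in 1 of 21 of mature surface genes (Cd22). The octamer was in 0 of 22 promoters of B-lineage transcription factors, the EBF motif in 0 of 14 of pre-B-cell receptor genes and the kappa-B motif in 1 of 21 of mature surface genes (Ltb). A match is a run of letters and does not show that the factor binds there.

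Genes of the pro-B stage and of V(D)J recombination were divided. Dntt, the terminal transferase gene, read 241 in CD43- cells and 2307 in CD43+ cells, 18.4-fold lower (log2 -4.20 ± 0.12). Vpreb1, a part of the surrogate light chain, read 2217 in CD43- cells and 13550 in CD43+ cells, 6.50-fold lower. Both were still detected in CD43- cells. Rag1, a subunit of the recombinase, read 2401 in CD43- cells and 749 in CD43+ cells, 3.48-fold higher, whereas its partner Rag2, near the detection limit, was 1.63-fold higher (log2 0.71 ± 0.27). Polm, the polymerase that fills light-chain joints in mice, read 782 in CD43- cells and 184 in CD43+ cells, 12.2-fold higher. Lig4, the ligase of end joining, was 2.35-fold higher and Xrcc6, the Ku70 gene, 1.66-fold higher. Of the 12 V(D)J and end-joining genes measured, 3 were at least 2-fold higher and Dntt alone was lower, beside 7.85% higher and 11.2% lower over all tested genes.

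Of 17 pro-B genes, 6 were at least 2-fold lower (5 by bounds) and 2 higher (median 0.06). Arpp21, whose gene hosts a microRNA, was 18.0-fold lower on its brightest probe, but the authors' deposited table gave a log2 difference of -0.68. Socs2, a feedback inhibitor of cytokine signalling, was 3.04-fold lower. Il7r, the interleukin-7 receptor alpha chain, read 3275 in CD43- cells and 3105 in CD43+ cells, a log2 difference of 0.06 ± 0.07. Myb, a factor of lymphoid precursors, was 2.12-fold higher on a probe near the detection limit (log2 1.08 ± 0.30). Vpreb3, a VpreB relative, read 22002 in CD43- cells and 10657 in CD43+ cells, 1.77-fold higher.

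Signalling genes of the pre-B-cell receptor had 4 of 17 members at least 2-fold higher and 4 lower (median 0.39). The kinase Blk was 3.70-fold higher and the kinase Syk read 605 in CD43- cells and 276 in CD43+ cells, 3.42-fold higher. The kinase Btk was 1.86-fold and the adapter Blnk 1.25-fold higher. The members 2-fold lower, beside Vpreb1, were Fyn (8.89-fold), Sh2b2 (at least 3.42-fold) and Lcp2, genes that also act in T and NK cells, whose markers were lower in the same cells; that part was not tested. For Fyn the authors' deposited table gave -0.68, against -3.15 here. Of 10 inhibitory and adapter genes of receptor signalling, 4 were higher and 1 lower. Beside Cd22 and Fcgr2b, the adapter Dok3 read 13152 in CD43- cells and 3008 in CD43+ cells, 3.95-fold higher, while the phosphatase gene Ptpn22 was 2.76-fold lower.

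NF-kB genes were mainly higher in CD43- cells, with 8 of 16 at least 2-fold higher and 1 lower (median 1.08). Nfkb2, the p100 subunit of the alternative pathway, read 431 in CD43- cells and 192 in CD43+ cells, 5.09-fold higher. Its partner Relb read 514 in CD43- cells and 228 in CD43+ cells, 4.11-fold higher. The canonical subunits differed less, at 1.02-fold lower for Nfkb1, 1.35-fold higher for Rela and 2.24-fold higher for Rel. Among target and feedback genes, Nfkbia, the inhibitor I-kappa-B-alpha, read 2353 in CD43- cells and 729 in CD43+ cells, 3.52-fold higher. The activation marker Cd83 was 9.71-fold, the I-kappa-B relative Bcl3 4.40-fold and the inhibitor of apoptosis Birc3 3.90-fold higher. Traf1, an adapter of tumour necrosis factor receptors, was 2.33-fold lower. The kappa-B motif printed above lies in the promoter of Nfkbia and in none of the other 11 NF-kB promoters read.

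Immediate-early genes and KLF factors were all above 0. Of 13 immediate-early genes, 5 were at least 2-fold higher (median 0.59). Jund, an AP-1 subunit, was 4.01-fold higher, the phosphatase Dusp2 3.59-fold, and Egr1, an early response factor, 3.05-fold. Fos, at 4027 in CD43- cells and 2733 in CD43+ cells, was 1.48-fold higher, and Jun 1.19-fold. Of 7 KLF genes, 3 were at least 2-fold higher (median 0.80). Klf2, a factor of lymphocyte quiescence and homing, read 6877 in CD43- cells and 2067 in CD43+ cells, 3.36-fold higher. Klf4 was 2.57-fold and Klf13 2.08-fold higher. All 6 measured GIMAP lymphocyte GTPases were above 0 as well (median 0.73), with Gimap8 at 2.28-fold.

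Toll-like receptors and interferon-stimulated genes had members at both ends. Of 19 Toll-like receptor and adapter genes, 4 were at least 2-fold higher and 2 lower, or 1 lower by bounds (median 0.38). Over all tested genes 7.85% were higher and 11.2% lower, so the lower count is near the general share. Tlr1, a receptor for bacterial lipopeptides, was 9.74-fold higher and the adapter Tirap 3.74-fold. Tlr7, a receptor for single-stranded RNA that is also a plasmacytoid marker, read 270 in CD43- cells and 1044 in CD43+ cells, 6.28-fold lower. Of 19 interferon-stimulated genes, 6 were lower and 4 higher, or 3 higher by bounds (median -0.16). Bst2 (10.3-fold) and Irf7 (9.86-fold) were the lowest. Both are themselves among the 13 lower members of the plasmacytoid list, and the part of plasmacytoid markers was not tested. The protease Usp18 was 4.69-fold lower and the RNA sensor Ddx58 4.23-fold higher.

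Cytokine signalling and survival genes were mixed. Of 15 interleukin-7 receptor and JAK-STAT genes, 4 were at least 2-fold higher, or 3 by bounds, and 3 lower (median -0.06). The lower members were the feedback inhibitors Socs2, Socs3 (2.81-fold) and Cish (2.13-fold), while Socs1 was detected in CD43- cells only (at least 1.71-fold higher) and the survival kinase Pim1 was 2.47-fold higher. In the BCL-2 family, 3 of 13 were higher and 3 lower (median 0.00). Bcl2l1, which encodes BCL-XL, read 411 in CD43- cells and 206 in CD43+ cells, 3.91-fold higher. Mcl1 read 8441 in CD43- cells and 3504 in CD43+ cells, 2.40-fold higher. Bcl2 itself differed by -0.15 ± 0.15. Among the death-promoting members, Bmf was 4.97-fold higher, whereas Bok was at least 11.4-fold lower. Bcl2l2, a survival gene, was 3.62-fold lower. Bbc3, the PUMA gene, was 2.27-fold lower here and at 0.30 in the authors' deposited table. Of 16 p53 pathway genes, 3 were higher, led by Gadd45a (3.06-fold), and 2 lower (median 0.10), beside 7.85% higher and 11.2% lower over all tested genes. By bounds the 1 lower member was Bbc3.

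Proliferation genes were lower by small amounts. Of 22 S-phase genes, 20 were below 0 and 2 at least 2-fold lower (median -0.56), and none was 2-fold higher. Over all 8539 tested genes, 3923 were below 0 and 11.2% were at least 2-fold lower, so the 2-fold count does not exceed that share. Tyms, thymidylate synthase, read 703 in CD43- cells and 1844 in CD43+ cells, 3.04-fold lower, and Tk1, thymidine kinase, was 2.26-fold lower. The helicase subunit Mcm2 was 1.65-fold and the sliding clamp Pcna 1.20-fold lower. Of 17 mitotic genes, 14 were below 0 and none passed 2-fold in either direction (median -0.23). Plk1, a mitotic kinase, read 1124 in CD43- cells and 1700 in CD43+ cells, 1.62-fold lower, and Ccnb1, cyclin B1, was 1.64-fold lower. Among 13 D-type cyclins and cell-cycle inhibitors, Ccnd1 was the 1 member 2-fold lower. The other D cyclins differed far less, at 1.56-fold lower for Ccnd2 and 1.38-fold lower for Ccnd3. Higher were Ccng2 (2.23-fold) and the inhibitor Cdkn1b (at least 2.36-fold). In the MYC network, Mycl was lower and Myc was below detection in CD43- cells, at least 1.25-fold lower.

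Replication-dependent histone genes did not share the small downward difference. Of 49 measured, 6 were at least 2-fold higher and none was 2-fold lower (median -0.01). The list was drawn up by gene name and also holds H1f10 (log2 0.66), a linker histone that is not replication-dependent. For H2bc4, among the higher members, the authors' deposited table gave 0.26, against 1.32 here. H1f2, a linker histone, read 6699 in CD43- cells and 1363 in CD43+ cells, 5.24-fold higher. H2bc6 and H2ac6 were detected in CD43- cells only, at least 3.09-fold and 2.69-fold higher. Histone genes are near-identical copies, so a probe's gene is uncertain. Most of their transcripts carry no poly(A) tail, and the effect of that on the signal was not tested.

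Ribosomal and proteasome genes were close to 0, and glycolysis genes were lower by small amounts. Of 57 ribosomal protein genes, Rpl3l alone was 2-fold lower (2.54-fold), and the median was -0.02. None of 33 proteasome subunits differed by 2-fold (median -0.07). Of 67 oxidative phosphorylation subunits, 55 were below 0 (median -0.22), and the 1 beyond 2-fold was Cox6a2, a muscle-type subunit that is also on the plasmacytoid list, 13.7-fold lower. Of 14 glycolysis genes, 12 were below 0 (median -0.71). Ldha, lactate dehydrogenase A, read 4463 in CD43- cells and 8655 in CD43+ cells, 1.89-fold lower, and the glucose transporter Slc2a3 was 2.62-fold lower. The other transporter on the list, Slc2a1, was 1.49-fold higher.

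Of 20 chaperone and unfolded protein response genes, 16 were below 0 and 4 at least 2-fold lower (median -0.51). Xbp1, a secretory-cell factor, read 3236 in CD43- cells and 8097 in CD43+ cells, 2.53-fold lower, and Edem1, Dnajc3 and Hspd1 were 2.24-fold, 2.19-fold and 2.16-fold lower. Of 9 plasma-cell genes, 4 were lower (3 by bounds), among them the chaperone genes Creld2 (2.85-fold) and Fkbp11 (2.69-fold), and Irf4 was 3.54-fold higher, at 3498 in CD43- cells and 1081 in CD43+ cells. Of 9 stem and early progenitor genes, 4 were lower, or 3 by bounds: Cd27 (14.8-fold), which NK and T cells also carry, Ly6a (2.99-fold), Meis1 (2.91-fold) and, short of 2-fold by its bound, Erg. Plasmacytoid, NK and T-cell markers were lower in the same cells and their part in these groups was not tested.

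**Figure D3:**
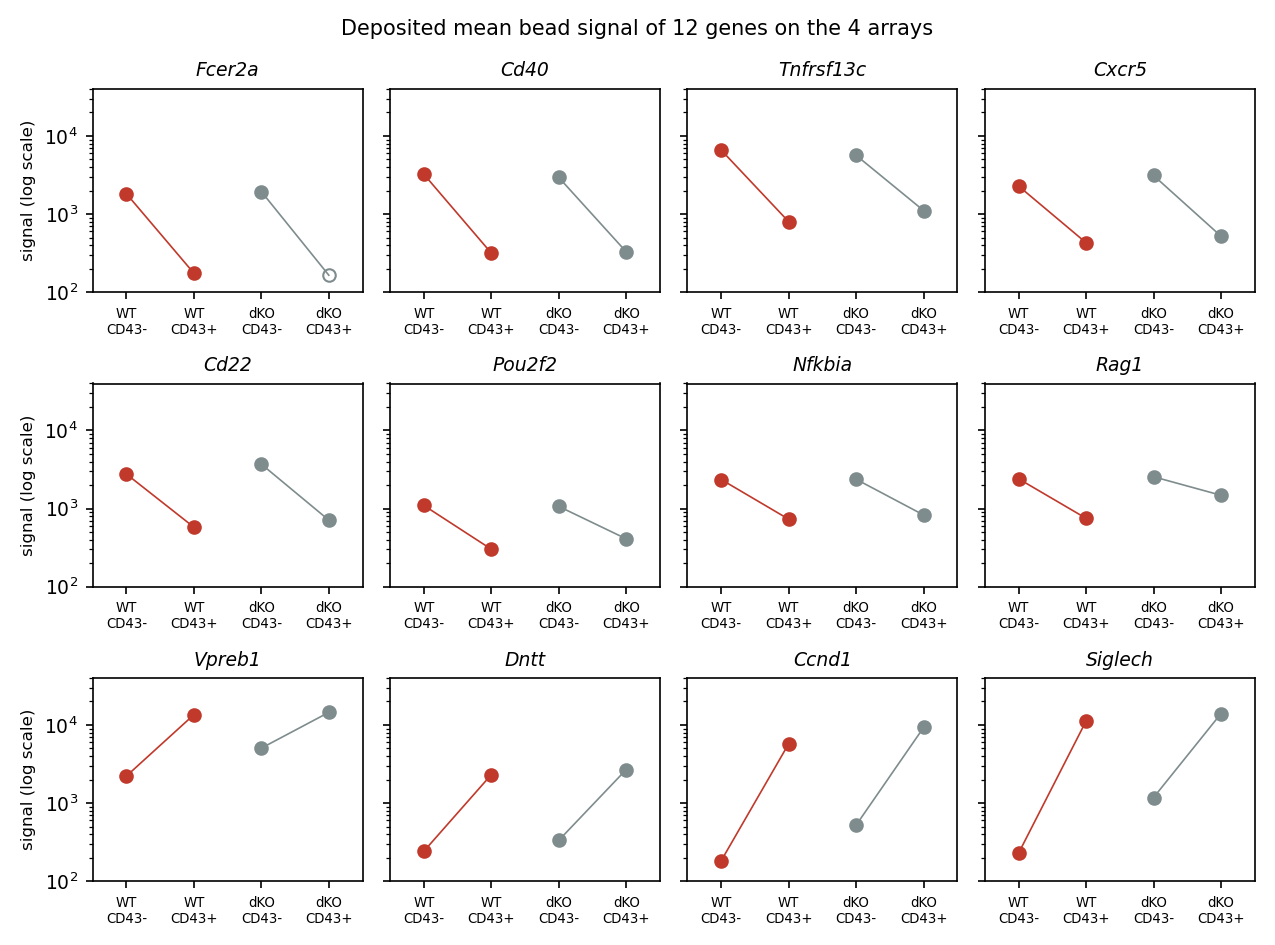
Signal before normalization (log axis) of 12 genes on the 4 arrays, with CD43- left of CD43+ in each genotype and open points where the probe was not detected. In WT cells Fcer2a stands at 1818 in CD43- and 174 in CD43+ cells, and Ccnd1 at 183 in CD43- and 5750 in CD43+ cells.

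Separate probes of the same gene gave a check within the arrays. Of 2184 genes with 2 or more detected probes, 135 were at least 2-fold higher on the brightest probe, every probe pointed upward in 130 of them, and every probe passed 2-fold in 93. For 201 genes lower on the brightest probe the counts were 193 and 136. These counts take normalized values as they stand, also where a probe was detected on 1 array only. For several genes, each probe detected on at least 1 array was detected on both. Upward, the log2 differences of the other probes were 3.10 for Polm, 2.97 and 2.89 for Cxcr5, 2.82 for Gadd45g and 2.65 for Ccr6. Downward, they were -6.54 for Siglech, -4.43 and -4.45 for Upb1 and -3.52 for Khk. A further Siglech probe was detected on neither array, at 135.3 in CD43- cells and 140.5 in CD43+ cells. Probes of 1 gene share the RNA sample, so their accord covers probe design and not the animals.

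The same stage difference in dKO marrow uses a separate pair of arrays. Among 8072 genes measured in both genotypes, 581 were at least 2-fold higher in CD43- cells of WT mice and 482 (5.97%) in CD43- cells of dKO mice. The 349 genes on both lists are 60.1% of the WT list and 72.4% of the dKO list. At least 2-fold lower were 904 genes in WT and 842 (10.4%) in dKO, and the 683 shared genes are 75.6% of the WT list and 81.1% of the dKO list. Of the WT higher genes 566 were above 0 in dKO, and of the WT lower genes 872 were below 0. A single gene, Dhx40, was 2-fold lower in WT and 2-fold higher in dKO, and it was singled out after its values were seen. Across the 8072 genes the WT and dKO differences correlated at Pearson r = 0.888 and Spearman rho = 0.793; the genes share the same 4 hybridizations and are not replicates.

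**Figure D4:**
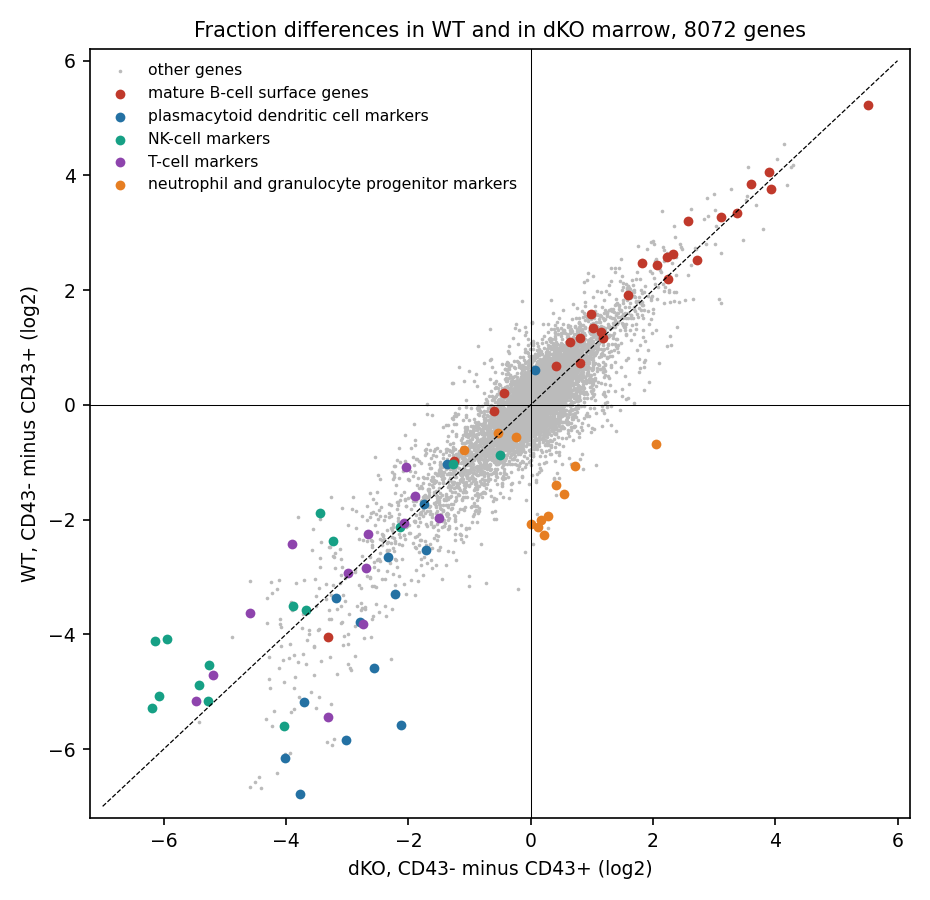
Log2 difference, CD43- minus CD43+, in WT cells (vertical axis) against the same difference in dKO cells (horizontal axis) for 8072 genes. Most of the 581 genes 2-fold higher in WT lie right of 0 in dKO (566), and most of the 904 lower ones lie left of it (872).

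Most lists had like medians in the 2 genotypes, and a few did not. Mature B-cell surface genes had a median of 2.05 in WT and 1.71 in dKO, NF-kB genes 1.08 and 0.85, and NK-cell markers -4.09 and -4.03. Plasmacytoid markers were at -3.57 in WT and -2.44 in dKO. Neutrophil markers were at -1.35 in WT and 0.19 in dKO, replicative histones at -0.01 in WT and 1.01 in dKO, S-phase genes at -0.56 in WT and 0.12 in dKO, and mitotic genes at -0.23 in WT and 0.30 in dKO. Fcer1g, 40.1-fold lower in WT, was detected on neither dKO array, at 141 in CD43- and 136 in CD43+ cells, so no stage difference can be given for it in dKO. With 1 array for each sample, none of these differences between genotypes was tested.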

How the data were processed

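Per the file headers, the authors exported the signal table from GenomeStudio 1.9.0 (MouseRef-8 V2 BeadChip) without normalizing it. It gives each probe's mean bead intensity, bead SD and bead number. The authors' detection score is a fraction from 0 to 1. A second deposited table holds log2 values after RMA in ArrayStar, per the file headers; the series matrix holds the same values. It was used as an alternative.

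From the deposited intensities, values were computed with neqc of limma 3.58.1 in R 4.3.3 (normexp background, offset 16, quantile over the 4 arrays, log2), with Python 3.11.15 for counts. Detection p was 1 minus the score, kept under 0.01. Symbols were updated through RefSeq: 14308 identifiers matched a symbol, 2893 a synonym and 937 kept the file's name. Each gene was its brightest probe over the 4 arrays. For a gene detected on 1 array, the dimmer side was set to the higher of its own value and the lowest detected one. The script was tested on simulated data.

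Groups came from sample titles. Each has 1 array, so no test was run, and the number of arrays limits precision. Named genes were the 15 largest differences per direction with the same sign in RMA, up to 12 per direction with several probes beyond 2-fold, the 4 largest of each list, and members named for their known role; a few are not reported here. The members and the 40 gene lists were chosen with earlier results of these data known. Alternatives were background, offset, scaling, detection filter, probe summary and the RMA table.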

Additional observations from a re-analysis of the deposited data

Results flagged for a closer look

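Among the named genes and the list medians, 7 had CD43- minus CD43+ differences of opposite sign in WT and dKO that lay at least 1 log2 unit apart; these differences between genotypes were not tested, since each sample has 1 array. Cdc45, a replication factor, was at -0.82 in WT and 0.46 in dKO on the log2 scale. The neutrophil granule genes Chil3 (-2.28 in WT, 0.22 in dKO), Lcn2 (-2.01 and 0.16) and Ltf (-2.13 and 0.13) were lower in WT CD43- cells and slightly above 0 in dKO. The median of the neutrophil and granulocyte progenitor markers was -1.35 in WT and 0.19 in dKO. Klf4 was at 1.36 in WT and -0.09 in dKO. The median of the replication-dependent histone genes was -0.01 in WT, where it has no clear direction, and 1.01 in dKO.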

How the results depend on the processing

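The counts past 2-fold, 670 higher and 954 lower, became 247 and 425 without background correction. An offset of 50 in place of 16 left 388 higher genes, and keeping only genes detected on both arrays left 520 lower ones. The other alternatives stayed within 1.5 times of these counts, and the share of higher among called genes ran between 36.7% and 46.8%, against 41.3%. The median of the basophil, mast and eosinophil markers turned from 1.18 to -0.61 with genes detected on both arrays and to -0.18 with no detection filter. The median of the E proteins and Id inhibitors turned from -1.23 to 0.61 with no filter, and Bbc3 from -1.18 to 0.30 in the RMA table. The first list has 5 members measured, 3 of them on both arrays and 12 unfiltered, and the cause was not tested for any of these. Of the single-gene values under an alternative, 1539 moved by less than the error, 303 by more and 1 reversed. A change of detection filter decides which genes are kept and cannot move a gene's value. Its unmoved values (151, 188 and 188) therefore test nothing. Without background correction 131 values moved by more than the error and 57 by less. With an offset of 50 the counts were 69 and 119. Among RMA values, 65 moved by more, 122 by less and 1 reversed. The bound and the mean of probes moved 18 each, and median scaling 2. Of the list medians, 350 moved by less, 46 by more and 3 reversed. No paired analysis was possible because each group has 1 array. Signals near 168, the detection limit, set the limit on dim genes, and no value has a replicate.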
